A study of Mus musculus with 10 samples.

Results

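The genes described here are Trp53, which encodes the transcription factor p53, and 9 genes that p53 is known to switch on in mouse cells, named Mdm2, Cdkn1a, Bbc3, Pmaip1, Bax, Ccng1, Fas, Btg2 and Trp53inp1. They were taken by symbol, with every probe set that the array's probe-to-gene table pairs with exactly that symbol. Of the 10 named genes, 8 had a probe set in that table, 15 probe sets in all, and all 8 were among the 13251 genes tested. Trp53 and Bax had none listed and were not analysed here, so the level of the Trp53 transcript itself is not reported.

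RNA was measured on Affymetrix mouse arrays in 3 groups of mouse cells, with 10 arrays in all. AG-haESC stands for androgenetic haploid embryonic stem cells, whose genome comes from sperm alone. Each of their 5 arrays is of a separate C57BL/6J line, of which AG-haESC replicates 1, 2, 4 and 5 (lines AGH-OG-1, AGH-OG-2, AGH-OG-3 and AGH-OG-4, passages 14, 15, 12 and 14) carried Oct4-EGFP and AG-haESC replicate 3 (AGH-EG-1, passage 15) carried Actin-EGFP. E14, a diploid line of male embryonic stem cells, is wild-type 129/Sv and was measured on 3 arrays at passage 17, so its spread holds no differences between lines. MEF are embryonic fibroblasts of the B6D2F1 strain from male embryos (d13.5), measured on 2 arrays at passage 2. All cells were stained with Hoechst 33342, a DNA dye, and sorted for cells in G1 or G0, the 1n peak for AG-haESC and the 2n peak for the other groups. The culture of AG-haESC used feeder cells with CHIR99021, an inhibitor of GSK3, and PD0325901, an inhibitor of MEK, and the labels give no medium for E14 and MEF. Ploidy, parental origin of the genome, strain, transgene and passage thus differ together between AG-haESC and E14 and cannot be told apart. Medium and feeders may differ between them as well, and cannot be told apart from these either.

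p53 is held at low levels in unstressed cells because MDM2, itself a product of a p53 target gene, marks it for degradation. After DNA damage and other stress it accumulates, binds response elements in DNA and raises genes that stop the cell cycle, repair DNA or start apoptosis. In mouse embryonic stem cells p53 is also known to repress pluripotency genes after damage and thereby to favour differentiation. Work on haploid mammalian cells has shown that p53 acts against their persistence in culture.

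p53 binds a pair of half-sites with the core letters CNNG. To show what such sites look like in these genes, promoter windows were taken from RefSeq (GRCm38.p6). They run from 250 bases before to 50 bases after a start of the gene. The promoter table holds 6 of the analysed genes (Bbc3, Btg2, Ccng1, Cdkn1a, Fas and Mdm2, 9 windows). The 3 windows that hold a consensus p53 half-site are printed 5′ to 3′ along the gene's strand, with the half-sites in capitals. They are at chr11:40755237-40755536 on the minus strand for Ccng1, chr17:29090729-29091028 on the plus strand for Cdkn1a and chr10:117710709-117711008 on the minus strand for Mdm2.
Ccng1: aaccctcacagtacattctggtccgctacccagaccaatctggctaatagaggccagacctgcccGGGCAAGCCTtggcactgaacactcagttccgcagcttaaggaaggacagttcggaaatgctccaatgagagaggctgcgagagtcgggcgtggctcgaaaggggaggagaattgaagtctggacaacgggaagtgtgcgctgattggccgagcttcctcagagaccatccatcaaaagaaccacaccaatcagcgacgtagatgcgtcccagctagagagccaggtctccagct
Cdkn1a: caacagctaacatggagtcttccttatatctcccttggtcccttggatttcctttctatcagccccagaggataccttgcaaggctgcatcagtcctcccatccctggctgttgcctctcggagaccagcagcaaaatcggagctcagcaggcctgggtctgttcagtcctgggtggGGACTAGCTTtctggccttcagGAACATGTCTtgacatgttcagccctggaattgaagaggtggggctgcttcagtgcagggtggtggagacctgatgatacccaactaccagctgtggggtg
Mdm2: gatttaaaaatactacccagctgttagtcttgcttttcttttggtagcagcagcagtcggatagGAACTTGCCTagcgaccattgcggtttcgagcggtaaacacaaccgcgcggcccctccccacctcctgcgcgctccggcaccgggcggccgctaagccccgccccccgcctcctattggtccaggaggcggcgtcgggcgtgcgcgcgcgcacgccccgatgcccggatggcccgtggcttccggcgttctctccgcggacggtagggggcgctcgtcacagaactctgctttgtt
The half-site of Ccng1 lies at -185 to -176 relative to the start used for its window, and that of Mdm2 at -186 to -177. For Ccng1 that start lies inside the gene, whose 5′ end in RefSeq is at chr11:40755309. Cdkn1a holds one at -73 to -64 and another at -51 to -42. Both strands were searched. A consensus half-site was found in 8.36% of the 32851 windows in the table. A full element of 2 half-sites with no spacer, with no mismatch allowed, was in 3 windows, none of them of these genes. Elements with an imperfect half-site were thus not counted. The bases directly before the Ccng1 half-site (agacctgccc) and directly after the second of Cdkn1a (tgacatgttc) hold the CNNG core and miss the consensus by a base. A looser pattern, 2 CNNG cores with 6 bases between them, was in 8 of the 9 windows and in 70.2% of all windows, so it separates little. The GC box GGGCGG was in 7 of the 9, against 35.7% of all windows, and TATAAA in none of the 9, against 13.6%. These matches describe letters in short windows and say nothing of binding.

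The deposited signals were put on a log2 scale, and a difference is a difference of mean log2 signals with the standard error of the fit. A gene passed when its Benjamini-Hochberg adjusted p in the limma fit over all 13251 genes lay below 0.05. Each array's median over all probe sets, between 5.81 and 6.09 log2 units, is the level at or below which a signal is treated here as background. All 8 pluripotent stem cell markers lay above that level in every AG-haESC and E14 array. Fibroblast markers summed to linear signals of 2168 to 7599 in AG-haESC, 1143 to 1617 in E14 and 119378 to 143402 in MEF, and 9 to 11 of 11 were above the array median in AG-haESC, 5 to 7 in E14 and 11 in MEF. Macrophage markers summed to 456 to 607, 528 to 599 and 5435 to 5835 in the same groups. A few other cells in a sample and a low level in every cell cannot be told apart in such bulk RNA.

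Among the stem cell arrays, AG-haESC replicate 4 stood apart from the other haploid lines in these genes, and E14 replicate 3 stood apart from the other E14 arrays over all genes (mean Pearson's r with its own group 0.923, against 0.945 and 0.946 for the other E14 arrays). Results below are therefore also given without these arrays where a call or a direction turned on them. AG-haESC replicate 4 was singled out from the values of these same genes. Leaving out their lowest line tends to lower the spread that all groups share in the fit. Calls gained without it are therefore given as a description and not as support. AG-haESC replicate 4 had the lowest signal of the 5 lines in 8 of the 8 genes, or in 7 of 7 without Fas, whose stem cell signals lay below background. Over all genes tested, it was the lowest line in 26.2%.

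**Figure D1:**
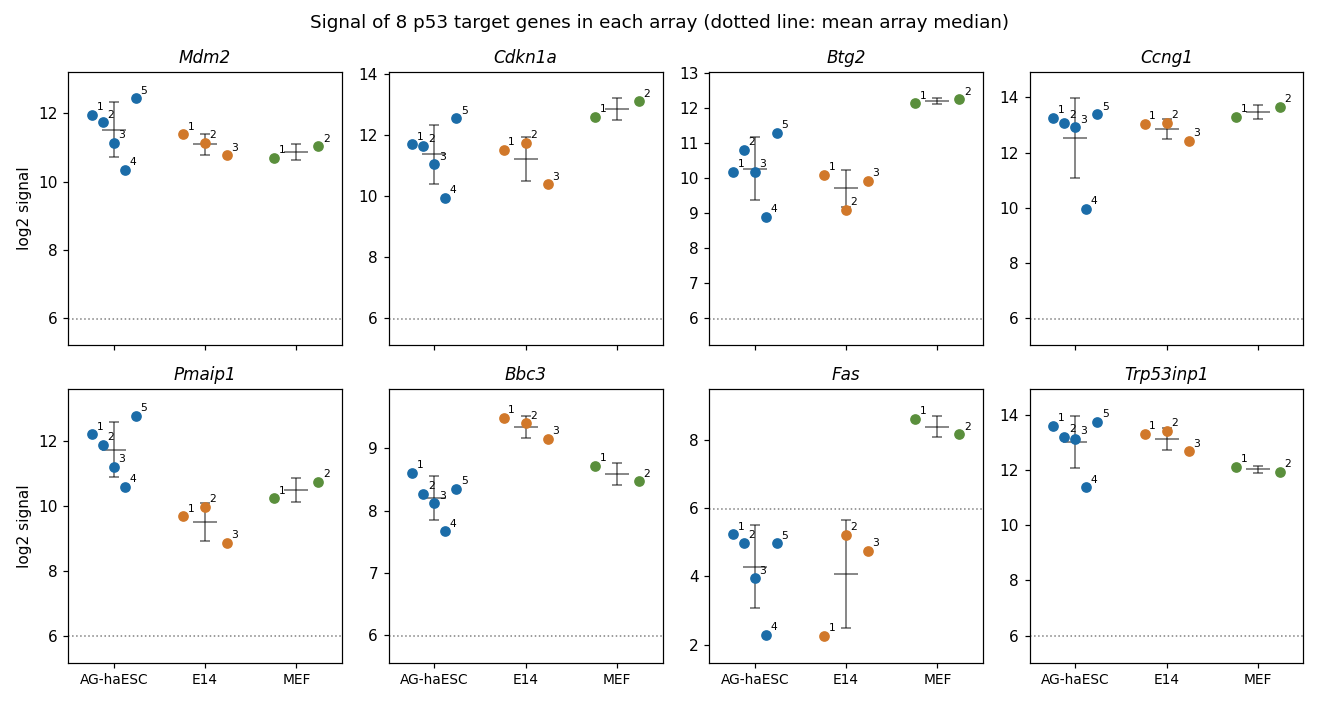
Log2 signal (vertical axes) of 8 p53 target genes in each array, with AG-haESC left, E14 in the middle and MEF right. Points are arrays numbered by replicate, horizontal bars are group means and vertical bars SD, and the dotted line is the mean of the array medians. AG-haESC replicate 4 is the lowest haploid line in every panel, and Pmaip1 and Bbc3 are the genes in which AG-haESC and E14 do not overlap.

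Mdm2 encodes the ubiquitin ligase that degrades p53 and closes the feedback loop. Its signal was 11.95, 11.74, 11.14, 10.35 and 12.44 in AG-haESC replicates 1 to 5, 11.39, 11.13 and 10.77 in E14 and 10.70 and 11.03 in MEF. The haploid lines spanned both other groups, with AG-haESC replicate 4 below every other array. The difference between AG-haESC and E14 was 0.43 ± 0.38 (SE, n = 5 and n = 3, limma adjusted p = 0.480), with a 95% interval of -0.39 to 1.25. Against MEF it was 0.66 ± 0.43 in AG-haESC (adjusted p = 0.206) and 0.23 ± 0.47 in E14 (adjusted p = 0.693). Without AG-haESC replicate 4 the difference between AG-haESC and MEF was 0.96 ± 0.30 and passed (adjusted p = 0.0198). The second kept probe set gave 10.22, 10.84, 10.23, 9.31 and 11.64 in AG-haESC, with the same lines lowest and highest. There the difference between AG-haESC and MEF without AG-haESC replicate 4 was 0.88 ± 0.36 and did not pass (adjusted p = 0.0623). The remaining probe set lay below the array median in all 10 arrays and was not tested.

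Cdkn1a encodes the inhibitor of cyclin-dependent kinases through which p53 halts the cell cycle. It was at 11.69, 11.63, 11.03, 9.94 and 12.54 in AG-haESC replicates 1 to 5, 11.51, 11.73 and 10.38 in E14 and 12.59 and 13.09 in MEF. Every stem cell array lay below both MEF arrays, by a narrow margin for AG-haESC replicate 5. The difference to MEF was -1.47 ± 0.56 in AG-haESC (adjusted p = 0.0382) and -1.63 ± 0.61 in E14 (adjusted p = 0.0374), so on this probe set Cdkn1a was lower in both stem cell groups. Leaving out AG-haESC replicate 3 took the AG-haESC call away (adjusted p = 0.0698), as did leaving out either MEF array (0.0840 and 0.212), and the E14 call was lost without E14 replicate 3 (-1.22, adjusted p = 0.103) or either MEF array (0.0770 and 0.185). With E14 and MEF replicate numbers as a block the E14 difference was -1.22 (adjusted p = 0.116). AG-haESC and E14 differed by 0.16 ± 0.49 (adjusted p = 0.861, 95% interval -0.90 to 1.22), and the sign turned without E14 replicate 3 (-0.25) or without AG-haESC replicate 5 (-0.13).

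The probe sets of Cdkn1a gave different results. The second one was at 10.85, 10.54, 10.29, 9.45 and 11.84 in AG-haESC, 9.81, 8.83 and 9.47 in E14 and 11.32 and 11.67 in MEF. On it AG-haESC exceeded E14 by 1.22 ± 0.42, which did not pass over all kept probe sets (adjusted p = 0.0803), and by 1.51 ± 0.35 without AG-haESC replicate 4, which did (adjusted p = 0.0188). Its difference to MEF was -0.90 ± 0.48 in AG-haESC and did not pass (adjusted p = 0.135), with AG-haESC replicate 5 above both MEF arrays, and it was -2.12 ± 0.52 in E14 (adjusted p = 0.00537). AG-haESC replicate 4 was again the lowest haploid line and the one that overlapped E14.

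Btg2 encodes an antiproliferative protein that slows entry into S phase. Its signals were 10.17, 10.80, 10.18, 8.89 and 11.29 in AG-haESC, 10.10, 9.09 and 9.92 in E14 and 12.13 and 12.25 in MEF. All stem cell arrays lay below both MEF arrays. Relative to MEF, Btg2 was 3.80-fold lower in AG-haESC (-1.93 ± 0.50, adjusted p = 0.00582) and 5.62-fold lower in E14 (-2.49 ± 0.54, adjusted p = 0.00226). AG-haESC and E14 overlapped and differed by 0.56 ± 0.44 (adjusted p = 0.418), or 0.91 ± 0.31 without AG-haESC replicate 4 (adjusted p = 0.0709). On the second probe set AG-haESC replicate 4 was at 6.82, against 8.71 to 10.53 in the other haploid lines, and the differences to MEF of -1.83 ± 0.75 and -1.95 ± 0.82 did not pass (adjusted p = 0.0586 and 0.0660). Without AG-haESC replicate 4 both passed (adjusted p = 0.0312 and 0.00456).

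Ccng1 encodes cyclin G1, a p53 target that recruits a phosphatase to MDM2. It had signals of 13.26, 13.08, 12.91, 9.96 and 13.39 in AG-haESC, 13.05, 13.07 and 12.43 in E14 and 13.30 and 13.65 in MEF. Apart from AG-haESC replicate 4, the stem cell arrays were close together, and that line lay 2.95 log2 units below the next lowest haploid line. The SD over the 5 lines was 1.44, and 0.209 over the other 4. AG-haESC minus E14 was -0.33 ± 0.64 (adjusted p = 0.769) and turned to 0.31 ± 0.18 without AG-haESC replicate 4 (adjusted p = 0.261). Both other probe sets had the same low line, at 10.10 against 12.61 to 13.03 in the remaining haploid lines and at 8.32 against 10.88 to 11.34. They disagreed on the fibroblasts, since E14 minus MEF was 1.31 ± 0.69 on the brighter of these and -0.59 ± 0.69 on the dimmer, and neither passed (adjusted p = 0.133 and 0.505). Without AG-haESC replicate 4, whose spread the groups share in the fit, E14 minus MEF on the brightest probe set passed (-0.62 ± 0.21, adjusted p = 0.0268). On the second probe set it then passed in the opposite direction (1.31 ± 0.25, adjusted p = 0.00148). On the dimmest it passed in the direction of the brightest (-0.59 ± 0.22, adjusted p = 0.0428). AG-haESC minus MEF passed on none of the probe sets (adjusted p = 0.284 on the brightest, 0.365 and 0.185 on the others). Without AG-haESC replicate 4 it passed on the second alone (1.24 ± 0.24, adjusted p = 0.00136). Ccng1 thus has no settled direction between either stem cell group and MEF.

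Pmaip1 encodes NOXA, a BH3-only protein that blocks the survival factor MCL1. Its signals were 12.20, 11.87, 11.20, 10.58 and 12.77 in AG-haESC, 9.68, 9.97 and 8.85 in E14 and 10.23 and 10.74 in MEF. All haploid lines exceeded all E14 arrays, including AG-haESC replicate 4. AG-haESC was 4.67-fold higher than E14, a difference of 2.22 ± 0.43 (adjusted p = 0.00543, 95% interval 1.29 to 3.16). The difference was 2.51 ± 0.36 without AG-haESC replicate 4 and 1.90 ± 0.45 without E14 replicate 3, and passed in both cases (adjusted p = 0.00144 and 0.0138). Against MEF, Pmaip1 was higher in AG-haESC by 1.24 ± 0.49 (adjusted p = 0.0454), although AG-haESC replicate 4 lay below the brighter MEF array. Leaving out AG-haESC replicate 1, 2 or 5, E14 replicate 1 or either MEF array took that call away (adjusted p = 0.0847, 0.0754, 0.0742, 0.0552, 0.247 and 0.0881), the smallest difference being 0.98. E14 minus MEF was -0.98 ± 0.53 and did not pass (adjusted p = 0.136).

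Bbc3 encodes PUMA, a BH3-only protein that binds all survival members of the BCL2 family. It went the other way between the stem cell groups, at 8.61, 8.27, 8.12, 7.67 and 8.35 in AG-haESC, 9.49, 9.40 and 9.15 in E14 and 8.72 and 8.47 in MEF. Every haploid line lay below every E14 array. Bbc3 was 2.21-fold lower in AG-haESC than in E14 (-1.14 ± 0.21, adjusted p = 0.0046, 95% interval -1.61 to -0.67), and -1.01 ± 0.18 without AG-haESC replicate 4 (adjusted p = 0.0045). The difference to MEF was -0.39 ± 0.24 in AG-haESC (adjusted p = 0.190). E14 exceeded MEF by 0.75 ± 0.27 (adjusted p = 0.0302), a call lost without E14 replicate 1 or 2 or either MEF array (adjusted p = 0.0825, 0.0683, 0.0659 and 0.174). Bbc3 also had the smallest spread over haploid lines of these genes, with an SD of 0.346.

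Fas encodes a death receptor of the cell surface. Its signals were 5.24, 4.99, 3.95, 2.28 and 4.97 in AG-haESC and 2.25, 5.22 and 4.75 in E14, all below the array medians, against 8.63 and 8.18 in MEF. The stem cell values therefore carry no order, which includes the low value of AG-haESC replicate 4. With the stem cell arrays put at their medians, Fas was at least 5.46-fold lower in AG-haESC than in MEF (adjusted p = 0.00241 in the fit of the measured values) and at least 5.17-fold lower in E14 than in MEF (adjusted p = 0.00337). No fold is given between AG-haESC and E14.

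Trp53inp1 encodes a stress protein that assists p53 in the nucleus and takes part in autophagy. Its brighter probe set read 13.60, 13.21, 13.12, 11.37 and 13.75 in AG-haESC, 13.31, 13.42 and 12.68 in E14 and 12.11 and 11.94 in MEF. Only AG-haESC replicate 4 among the stem cell arrays lay below the MEF arrays. The difference was -0.12 ± 0.44 between AG-haESC and E14 (adjusted p = 0.882), 0.99 ± 0.50 between AG-haESC and MEF (adjusted p = 0.109) and 1.11 ± 0.55 between E14 and MEF (adjusted p = 0.101). Without AG-haESC replicate 4 the first was 0.29 ± 0.20 (adjusted p = 0.364), and the excess over MEF passed in AG-haESC (1.40 ± 0.23, adjusted p = 0.000406) and in E14 (1.11 ± 0.24, adjusted p = 0.00255). The other probe set lay near or below the array medians, from 3.69 to 6.78 in AG-haESC and 5.53 to 6.38 in E14, against 4.94 and 5.33 in MEF, and there AG-haESC replicate 1 was the lowest line.

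Between AG-haESC and E14, then, 2 of the 8 genes passed, against 15.9% of all genes tested. Pmaip1 was higher, as were 8.08% of all genes, and Bbc3 lower, as were 7.77%. In both of them, and in no other of the 8, the groups did not overlap, against 22.6% of all genes. In the comparison of AG-haESC with MEF, 4 of the 8 passed, against 59.8% of all genes. Fas, Btg2 and Cdkn1a were lower, where 29.6% of all genes were, and Pmaip1 was higher, where 30.2% were. The groups did not overlap in the 3 lower ones, against 70.3% of all genes. For E14 against MEF 4 of the 8 passed, against 57.3% of all genes. Fas, Btg2 and Cdkn1a were lower, where 26.9% of all genes were, and Bbc3 was higher, where 30.4% were. The groups did not overlap in 7 of the 8, against 73.9% of all genes. Both comparisons share the MEF arrays, and both AG-haESC comparisons share the haploid lines. Without AG-haESC replicate 4, 6 of the 8 passed for AG-haESC against MEF, where 59.1% of all genes did. For E14 against MEF it was also 6 of the 8, where 58.3% of all genes passed. The count for AG-haESC against E14 was again 2, with 15.8% of all genes. Because that array was singled out in these same genes, the gained calls are not read as a result about them.

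**Figure D2:**
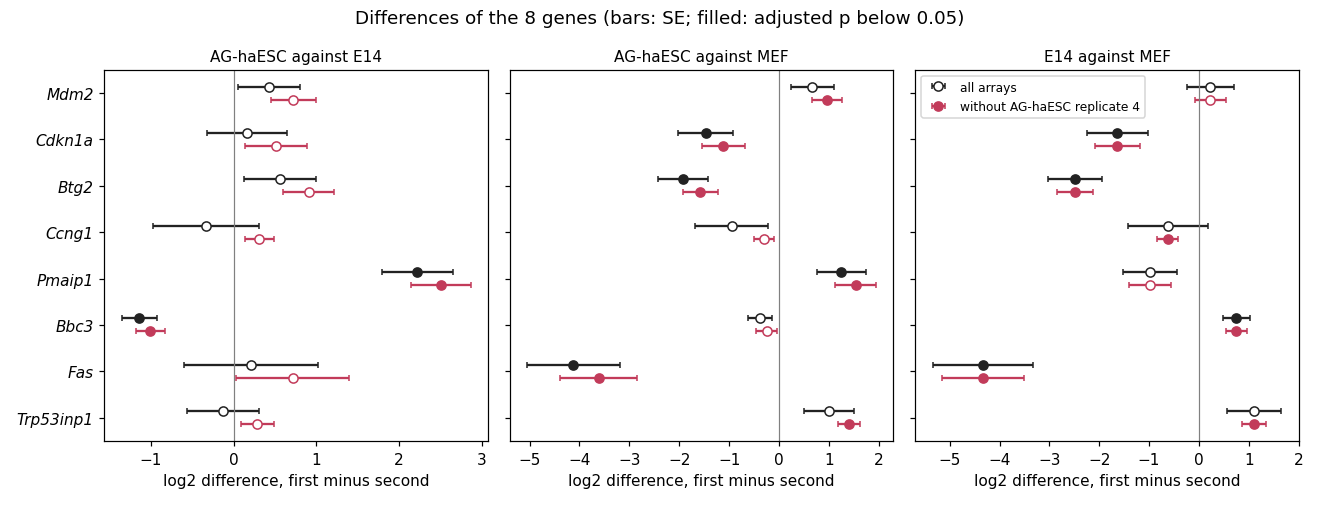
Difference of mean log2 signals (horizontal axes, first group minus second) for the 8 genes in each comparison, with SE bars. Black is the fit of all arrays and red the fit without AG-haESC replicate 4, and filled points have an adjusted p below 0.05. Pmaip1 and Bbc3 lie on opposite sides of 0 in the first panel, and Ccng1 and Trp53inp1 change side there without AG-haESC replicate 4.

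The variation among haploid lines was wide in these genes. The SD over the 5 AG-haESC arrays was between 0.346 and 1.44, with a median of 0.93 against 0.29 over all genes. Over the other 4 lines the median was 0.54 against 0.26 over all genes. There Bbc3 and Ccng1, with SDs of 0.205 and 0.209, lay below the median of all genes, and the other 5 genes above background lay above it. The median deviation from the 5-line median, taken over the 8 genes, was 0.24, 0, -0.39, -1.54 and 0.62 in AG-haESC replicates 1 to 5, and without Fas it was 0.21, 0, -0.17, -1.39 and 0.70. Of the 7 genes without Fas, AG-haESC replicate 5 was the highest line in 6, against 25.7% of all genes, and AG-haESC replicate 1 in Bbc3.

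The distance of AG-haESC replicate 4 from the other lines differed between the genes. Ccng1 lay 3.12 log2 units below the line median, a deviation that 39 of the 13251 genes (0.294%) matched or passed on the low side. Trp53inp1 deviated by -1.83, Cdkn1a by -1.68, Mdm2 by -1.39, Btg2 by -1.30, Pmaip1 by -1.28 and Bbc3 by -0.60, which 11.5% of genes matched or passed. These counts describe 1 line measured on 1 array, so that a property of the line and one of its sample cannot be told apart.

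A list of 40 other p53 target genes, 37 of them tested, showed the same line lowest in 26. Its median deviation was -0.76 in AG-haESC replicate 4 and 0.17 in AG-haESC replicate 5, which was the highest line in 18. For upstream regulators and kinases of p53 the line was lowest in 8 of 27 genes with a median deviation of 0, and for the BCL2 family and death machinery in 7 of 19 with a median of -0.14, against 26.2% of all genes. Among the 7895 genes with a mean log2 signal of at least 8 the share was also 26.2%. The lowest deviations among the 37, picked after the values were seen, were those of Eda2r, an ectodysplasin receptor of the TNF receptor family (-4.09), Plk2, a stress-responsive polo-like kinase (-2.54), Phlda3, an inhibitor of AKT (-2.37), and Ak1, an adenylate kinase (-2.30). Eda2r was at 6.03 in AG-haESC replicate 4, next to that array's median of 5.98, so the size of its deviation rests on a signal near background.

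Not every target followed. Sesn1, a sestrin that restrains mTORC1, deviated by -0.03 in AG-haESC replicate 4, Rrm2b, a ribonucleotide reductase subunit, by -0.01, Ddb2, of nucleotide excision repair, by 0.31 and Ddit4, another brake on mTORC1, by 0.33. These were likewise picked after the values were seen. Cdkn2a, whose ARF product holds back MDM2, was at 8.32, 7.06, 7.16, 8.40 and 7.04 in AG-haESC replicates 1 to 5, high in replicates 1 and 4. It too was picked after the values were seen, and it passed in no comparison (adjusted p = 0.905, 0.162 and 0.154). Its deviation in AG-haESC replicate 4 was 1.23, where the 27 regulators and kinases had a median of 0. A link to the low targets was not tested.

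**Figure D3:**
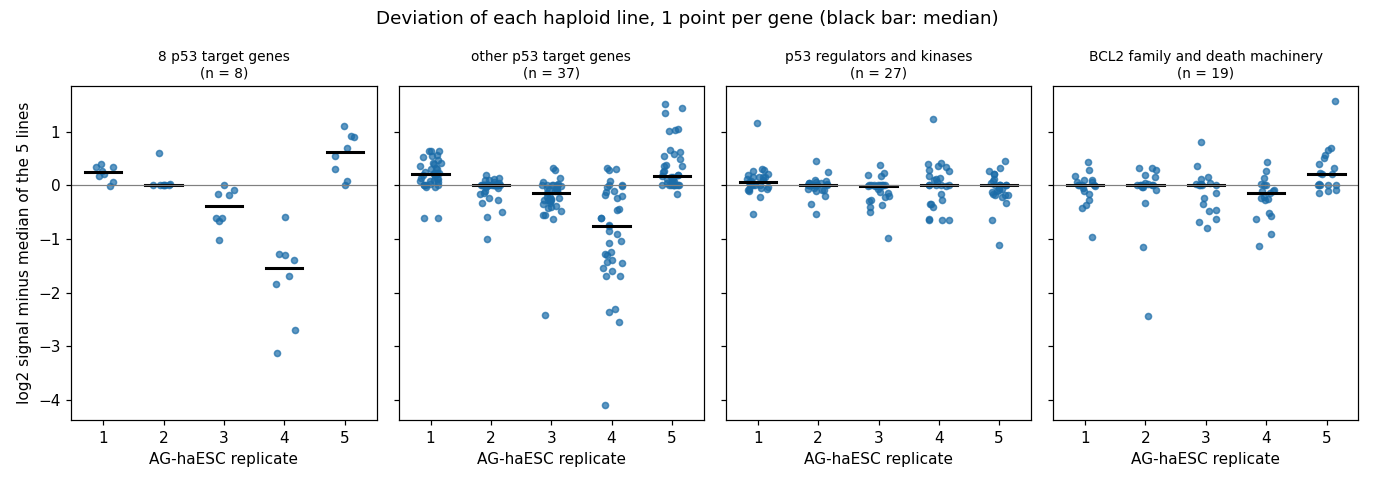
Log2 signal of each gene minus its median over the 5 haploid lines (vertical axis) for AG-haESC replicates 1 to 5, with 1 point per gene and the median as a black bar. The 8 genes have a median of -1.54 in AG-haESC replicate 4 and the 37 other p53 targets one of -0.76, while the 27 regulators and kinases have a median of 0 and the 19 BCL2 family and death genes one of -0.14.

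Values that could move with this line were looked at beside it. AG-haESC replicate 4 had a mean Pearson's r of 0.954 with the other haploid arrays, against 0.961 to 0.963 for those. Its fibroblast marker sum of 2556 lay within the 2168 to 7599 of the haploid lines, and its macrophage sum of 456 was the lowest. Its pluripotency marker sum of 103835 lay within the 94432 to 104947 of the haploid lines. The difference between 3′ and 5′ probe sets, a sign of RNA integrity, was 0.442 for Actb, within 0.435 to 0.739 in the haploid lines, and -0.344 for Gapdh, the lowest of the -0.344 to -0.24 in these lines. It was also the line of the lowest passage, 12 against 14 and 15. The part of passage in the result was not tested.

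**Figure D4:**
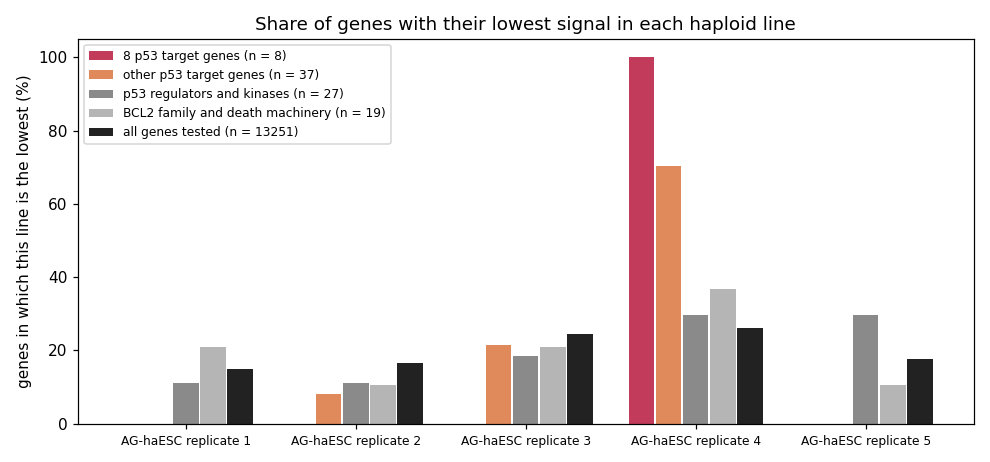
Percent of genes (vertical axis) whose lowest signal among the 5 haploid lines fell in each AG-haESC replicate (horizontal axis), for the 8 genes, 3 other lists and all 13251 genes. AG-haESC replicate 4 holds 100% of the 8 genes and 70.3% of the 37 other p53 targets, against 26.2% of all genes.

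The same counts were taken for the E14 arrays. E14 replicate 3 was the lowest E14 array in 6 of the 8 genes, against 50.1% of all genes, with a median deviation of -0.49. The 8 include Fas, whose E14 signals lay below background and which is not among these 6. Of the 37 other p53 targets it was lowest in 20 (54.1%) and highest in 15 (40.5%). Over all genes these shares were close, at 50.1% and 34.7%. In Pmaip1 it was at 8.85 against 9.68 and 9.97 in the others, and in Cdkn1a at 10.38 against 11.51 and 11.73.

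Between AG-haESC and E14, 15.9% of all genes passed, 8.08% higher and 7.77% lower. Of the 37 other p53 targets none was higher and 3 were lower in AG-haESC, Ptprv, a receptor-like phosphatase (-1.25 ± 0.37, adjusted p = 0.0423), Plk3, a polo-like kinase of the stress response (-0.79 ± 0.17, adjusted p = 0.0102), and Aen, an apoptosis-enhancing nuclease (-0.66 ± 0.21, adjusted p = 0.0497). The median difference was -0.02, against -0.08 for all genes. Without E14 replicate 2 none of these 3 passed, with Plk3 at adjusted p = 0.0519, and the calls of Ptprv and Aen were also lost without most of the other arrays. Of 27 regulators and kinases, Sirt1, a deacetylase that acts on p53, was higher (0.76 ± 0.16, adjusted p = 0.00777) and Kat5, the TIP60 acetyltransferase, was lower (-0.94 ± 0.27, adjusted p = 0.034). Kat5 no longer passed when AG-haESC replicate 3 or any single E14 or MEF array was left out (adjusted p up to 0.0898).

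Of 19 genes of the BCL2 family and death machinery, 3 passed between AG-haESC and E14, close to the 15.9% of all genes. Xiap, an X-linked inhibitor of caspases, was higher in AG-haESC (1.07 ± 0.12, adjusted p = 0.000212). Bid, which links death receptors to mitochondria, was lower (-0.93 ± 0.22, adjusted p = 0.0166, or 0.0685 with the mean of its probe sets), as was Bok, a pore-forming relative of BAX (-0.75 ± 0.17, adjusted p = 0.0136), whose call was lost without E14 replicate 2 (0.0577). Among 7 tested relatives of these genes, Cdkn1c, an imprinted inhibitor of cyclin-dependent kinases expressed from the maternal allele, passed, at 6.29 ± 0.79 in AG-haESC and 9.04 ± 1.48 in E14 (SD, n = 5 and n = 3), a difference of -2.76 ± 0.59 (adjusted p = 0.0095).

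The comparison of AG-haESC with MEF called 30.2% of all genes upward and 29.6% downward, and that of E14 with MEF 30.4% upward and 26.9% downward. Of the 37 targets 14 were higher and 5 lower in AG-haESC, with a median of 0.38 against 0.00453 for all genes, and 13 were higher and 6 lower in E14, with a median of 0.24 against 0.08. Tigar, which diverts glucose from glycolysis, was higher by 3.30 ± 0.30 in AG-haESC (adjusted p = 3.17e-06) and 2.57 ± 0.33 in E14 (adjusted p = 4.97e-05). Plk2 differed by -2.73 ± 0.72 in AG-haESC and -2.18 ± 0.79 in E14 (adjusted p = 0.00644 and 0.033), the E14 call being lost without E14 replicate 3 or either MEF array. Perp, a desmosome protein, was higher by 2.55 ± 0.50 in AG-haESC (adjusted p = 0.00095). Trp53inp2, the autophagy relative of Trp53inp1, differed by -2.04 ± 0.20 in AG-haESC and -1.99 ± 0.22 in E14 (adjusted p = 5.66e-06 and 1.62e-05). The count without 1 MEF array was as low as 11 of 37 in AG-haESC and 10 in E14.

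Of 27 regulators, 15 were higher and 3 lower in AG-haESC than in MEF, where 30.2% and 29.6% of all genes were, and 17 were higher and 3 lower in E14, where 30.4% and 26.9% were. Chek1, the checkpoint kinase of replication stress, was higher by 2.71 ± 0.15 in AG-haESC (adjusted p = 5.3e-08) and by 2.62 ± 0.16 in E14 (adjusted p = 1.87e-07). Hipk2, a kinase that directs p53 to apoptotic targets, differed by -2.55 ± 0.24 in AG-haESC (adjusted p = 3.65e-06) and -2.26 ± 0.26 in E14 (adjusted p = 2.13e-05, or 0.133 with the mean of its probe sets). In the death machinery, 4 were higher and 4 lower of 19 in AG-haESC and 3 higher and 4 lower in E14, against the same shares of all genes. Casp8, the caspase that acts below FAS, differed by -2.97 ± 0.29 in AG-haESC and -2.92 ± 0.32 in E14 (adjusted p = 5.42e-06 and 1.45e-05). Bcl2, the founding survival gene of the family, lay below the array medians in all AG-haESC arrays and was at least 7.01-fold lower there than in MEF (adjusted p = 0.000462). Mcl1, the survival factor that NOXA blocks, was higher by 1.08 ± 0.17 in AG-haESC and 1.23 ± 0.19 in E14 (adjusted p = 0.00024 and 0.000195).

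Over the 10 arrays, the genes whose log2 signals ran most like those of Cdkn1a were Map3k20, Dzip1 and Mcam (Pearson's r 0.987, 0.966 and 0.961). Map3k20, the ZAK kinase of the ribotoxic stress response, was at 10.32, 9.97, 9.54, 7.92 and 10.77 in AG-haESC replicates 1 to 5, 9.88, 10.23 and 8.34 in E14 and 11.35 and 11.64 in MEF. It was thus low in the same haploid line and the same E14 array as Cdkn1a and highest in MEF. Most like Btg2 were Prkag1, Pcp4 and Irak2 (0.971, 0.953 and 0.952), and most like Mdm2 were Mst1, Wdr6 and Zxdc (0.920, 0.903 and 0.901). These are the top 3 of 13251 genes each and are given as a description over arrays that fall into 3 groups.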

How the data were processed

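RNA was measured in 10 arrays (5 AG-haESC, 3 E14, 2 MEF). The authors deposited an intensity for each probe set, made with MAS5 per the submitters' processing notes. They are linear, and the 2% trimmed mean is 500 in every array, so values are relative within an array. The number of arrays limits the precision. The labels call the E14 and MEF arrays biological replicates and do not say whether these were separate cultures or embryos.

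Logarithms to base 2 were taken. The table held 45101 probe sets including 64 controls. GEO's platform annotation gives 1 symbol for 34945, several for 932 and none for 9160. Probe sets above their array's median in at least 2 arrays were kept (27505), and a gene was represented by its kept probe set with the highest mean. limma 3.58.1 in R 4.3.3 fitted 3 group means to all arrays (7 residual degrees of freedom, variance trend), two-sided, with Benjamini-Hochberg adjustment over 13251 genes, or over all kept probe sets where a second probe set is given. The code was tested on simulated data. With 5 arrays, Dixon's ratio was used to mark an array far from its group. Alternatives changed the probe set rule, filter, pseudocount, floor, normalization, variance trend, array weights, groups in the fit, call rule, replicate block and left-out arrays.

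The genes and lists were chosen with earlier results of these data known, and no list was tested as a set. Genes named from a list for a comparison are among the 4 with the largest difference that passed, or any of them where 5 or fewer passed. Not every such gene is named. Also named are the 3 most similar by Pearson's r for Cdkn1a, Btg2 and Mdm2. The counts by lowest line and the consensus half-site search were added after the values were seen.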

Additional observations from a re-analysis of the deposited data

Results flagged for a closer look

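In 4 of the 14 kept probe sets of these genes, AG-haESC replicate 4 lay farther from the other haploid lines than Dixon's 95% critical ratio of 0.71 for 5 arrays. For normal noise, chance alone marks about 1 in 20 groups, and probe sets of the same gene are not independent. The share of all kept probe sets that this rule marks was not computed. The count is therefore not read as a result about these genes. The cyclin G1 gene Ccng1 was marked on all 3 of its probe sets, at 9.96 on the brightest (ratio 0.861), 10.1 on the second (0.856) and 8.32 on the third (0.848). The stress protein gene Trp53inp1 was marked on its brighter probe set, at 11.37 (ratio 0.734). Its dimmer one was not.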

How the results depend on the processing

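The direction and call of Pmaip1 and Bbc3 between AG-haESC and E14 held under every alternative run, with Pmaip1 at 1.90 to 2.51 and Bbc3 at -1.24 to -1.01. The number of genes called there was 2101, and it was 4626 with array weights, 1102 with a 2-fold minimum and 1276 to 2859 with 1 array left out. Pmaip1 and Bbc3 have 1 probe set each, so the probe set rule could not change their signals. Of the uncalled differences between AG-haESC and E14, Cdkn1a turned to -0.016 with array weights and ranged from -0.25 to 0.52 with 1 array left out. Fas turned to -0.081 with a floor at the array median and ranged from -0.70 to 0.78, Ccng1 ranged from -0.55 to 0.31 and Trp53inp1 from -0.35 to 0.29.

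For AG-haESC against MEF, 4 of the 8 genes passed, 2 without the variance trend and 2 to 6 with 1 array left out. Of their probe sets 4 passed, and 2 with the stricter filter or no trend, 7 with array weights and 1 to 8 with 1 array left out. For E14 against MEF the 4 genes became 2 to 6 with 1 array left out and 3 with the replicate block, and the 5 probe sets became 8 with array weights or the 2 groups alone, 4 with the block and 3 to 10 with 1 array left out. Across genes, E14 and MEF arrays that share a number did not deviate together (r = -0.026, 2 pairs), and among the 8 genes the block changed the call of Cdkn1a alone (-1.22). Ccng1 turned to 0.033 for E14 against MEF with the mean of its probe sets. Over all genes, 7921 were called for AG-haESC against MEF, and 5596 to 9175 under the alternatives other than leaving out an array. For E14 against MEF these numbers were 7595 and 5581 to 9266. The share of all kept probe sets that passed was not computed. The probe set counts are therefore not read as a result about these genes. The cause was not tested in any of these.

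The other p53 targets called between AG-haESC and E14 numbered 3, and 0 to 7 with 1 array left out and 1 to 11 otherwise. Regulators numbered 2, and 1 to 4 and 0 to 10, and death genes 3, and 2 to 4 and 1 to 6. Against MEF, 8 death genes called in AG-haESC became 4 at the fewest, 20 regulators called in E14 became 12 with a 2-fold minimum and 7 death genes 14 with array weights. The count lowest in AG-haESC replicate 4 was 7 to 8 for the 8 genes and 19 to 26 for the other targets.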
